A study of Mus musculus with 24 samples.

Results

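Interferon-stimulated genes (ISGs) were examined in kidneys of mice after myocardial infarction (MI). The set held 40 genes, led by Rtp4 and chosen by name as well-known ISGs, among the 56941 genes of the count table. All 40 had counts, and 37 of them were among the 12780 genes with enough counts to be tested. The set was put together with results of these same kidneys known, so nothing is read from how many of its genes differed, and the differences of Rtp4 are given as a description with no test. Kidneys came from young adult male C57BL/6J wild-type mice. In one group the left anterior descending coronary artery was tied off permanently and the mice were killed 5 days later (5d post-MI, 8 kidneys used of 9), another 28 days later (28d post-MI, 6 used of 7), and 8 sham mice had the same operation without ligation. Sham kidneys were taken 5 days after surgery and served both comparisons, so in the 28d comparison infarction and time since surgery cannot be told apart. RNA came from frozen kidney tissue and was read at the 3′ end of transcripts (Massive Analysis of cDNA Ends, MACE-seq). In such bulk samples, fewer cells of a type and less RNA per cell cannot be told apart. Each kidney is a separate mouse, and p-values set the difference between groups against the spread between these kidneys.

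Interferons are secreted antiviral cytokines. Type I and type III interferons act through JAK1 and TYK2 and activate the complex ISGF3, which holds STAT2 and IRF9 and binds the interferon-stimulated response element (ISRE). Type II interferon (interferon gamma) acts through JAK1 and JAK2, and its signal reaches promoters at the gamma-activated site (GAS). The genes switched on in this way sense foreign nucleic acids, block viral replication, tag proteins with ISG15 and feed peptides to MHC class I. Many ISGs are also transcribed at a low level without infection.

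Both elements were looked for in RefSeq promoters of the build GRCm38.p6, each reaching from 250 bases before the transcript start to 50 bases after it. Such windows were matched for 33 of the 40 genes. Dhx58, Zbp1, Rtp4, Usp18, Parp9, Parp14 and Ifi27 had none. The ISRE core was searched as GAAANNGAAA and the GAS core as TTCNNNGAA, on both strands. An ISRE core was found in 15 of the 33 genes (45.5%), against 1079 of 27025 genes with a window (3.99%). A GAS core was found in 10 of the 33 (30.3%), against 2582 of the 27025 (9.55%). All 5 interferon-inducible GTPases of the set held the ISRE core, and none of the 3 genes of the immunoproteasome and peptide transport did. In Bst2 alone, a GAS core shared 3 bases with an ISRE core. A match describes the letters and is not a measured binding site. The promoter stretches of 8 genes with the ISRE core and of 2 genes with the GAS core are shown because these genes carry the values described further on. Each ends before the transcript start, reads 5′ to 3′ on the strand of the gene, and has the core in capitals. Where the core lies on the other strand, it appears as TTTCNNTTTC.
Ifit1: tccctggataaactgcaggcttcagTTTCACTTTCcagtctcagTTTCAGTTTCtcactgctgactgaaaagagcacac
Ifit3: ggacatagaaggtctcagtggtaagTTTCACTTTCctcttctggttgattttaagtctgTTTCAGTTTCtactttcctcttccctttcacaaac
Isg15: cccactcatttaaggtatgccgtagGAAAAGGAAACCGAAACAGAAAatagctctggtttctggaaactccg
Bst2: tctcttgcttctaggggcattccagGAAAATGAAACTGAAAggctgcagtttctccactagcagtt
Irgm1: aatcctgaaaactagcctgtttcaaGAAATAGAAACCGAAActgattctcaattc
Igtp: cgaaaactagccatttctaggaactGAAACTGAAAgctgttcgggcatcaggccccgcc
Gbp2: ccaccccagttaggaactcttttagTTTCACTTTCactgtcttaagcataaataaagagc
Gbp3: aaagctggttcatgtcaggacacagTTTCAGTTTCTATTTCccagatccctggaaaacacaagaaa
Psmb8: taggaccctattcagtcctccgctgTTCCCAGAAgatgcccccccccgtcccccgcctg
Isg20: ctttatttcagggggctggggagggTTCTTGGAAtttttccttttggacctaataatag
The stretches lie at chr19:34640760-34640838 on the plus strand for Ifit1 and at chr19:34583348-34583441 on the plus strand for Ifit3. Isg15 lies at chr4:156200850-156200921 and Bst2 at chr8:71537562-71537627, both on the minus strand. Irgm1 was read at chr11:48871421-48871475 on the minus strand and Igtp at chr11:58199497-58199555 on the plus strand. Both guanylate-binding protein genes are on the plus strand, Gbp2 at chr3:142620579-142620638 and Gbp3 at chr3:142559974-142560039. Psmb8 is at chr17:34198073-34198131 and Isg20 at chr7:78913326-78913384, both on the plus strand. Overlapping copies of the core run together in Isg15, Bst2, Irgm1 and Gbp3, and Ifit1 and Ifit3 hold 2 separate copies each.

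The 22 kidneys had 2280618 to 3786275 counted molecules, so that 3 counts correspond to 0.809 to 1.326 CPM. Levels are given as CPM, the share of a kidney's counts after TMM normalization. Kidney markers such as those of tubule segments were present in every kidney, with sums of 7113 to 8350 CPM. Adrenal cortex genes summed to 966 CPM in sham replicate 2, 719 CPM in sham replicate 6 and 84.0 CPM in 5d replicate 5, against 0.795 to 4.27 CPM in the other 19 kidneys. Of the single genes, a log2 fold change without these 3 kidneys is given for Rtp4 only. Of the set, Dhx58 with at most 14 counts in a kidney, Zbp1 with at most 13 and Xaf1 with at most 13 were too low to test. Dhx58 (LGP2, a regulator of RIG-I-like sensing) averaged 2.95 ± 0.82 CPM in sham (SD, n = 8), 1.80 ± 0.337 CPM 5d post-MI (n = 8) and 2.03 ± 0.409 CPM 28d post-MI (n = 6). Zbp1, a sensor of Z-form nucleic acids, averaged 2.02, 0.973 and 1.64 CPM in the 3 groups, and Xaf1, an inducer of apoptosis, 3.22, 2.31 and 2.19 CPM.

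**Figure D1:**
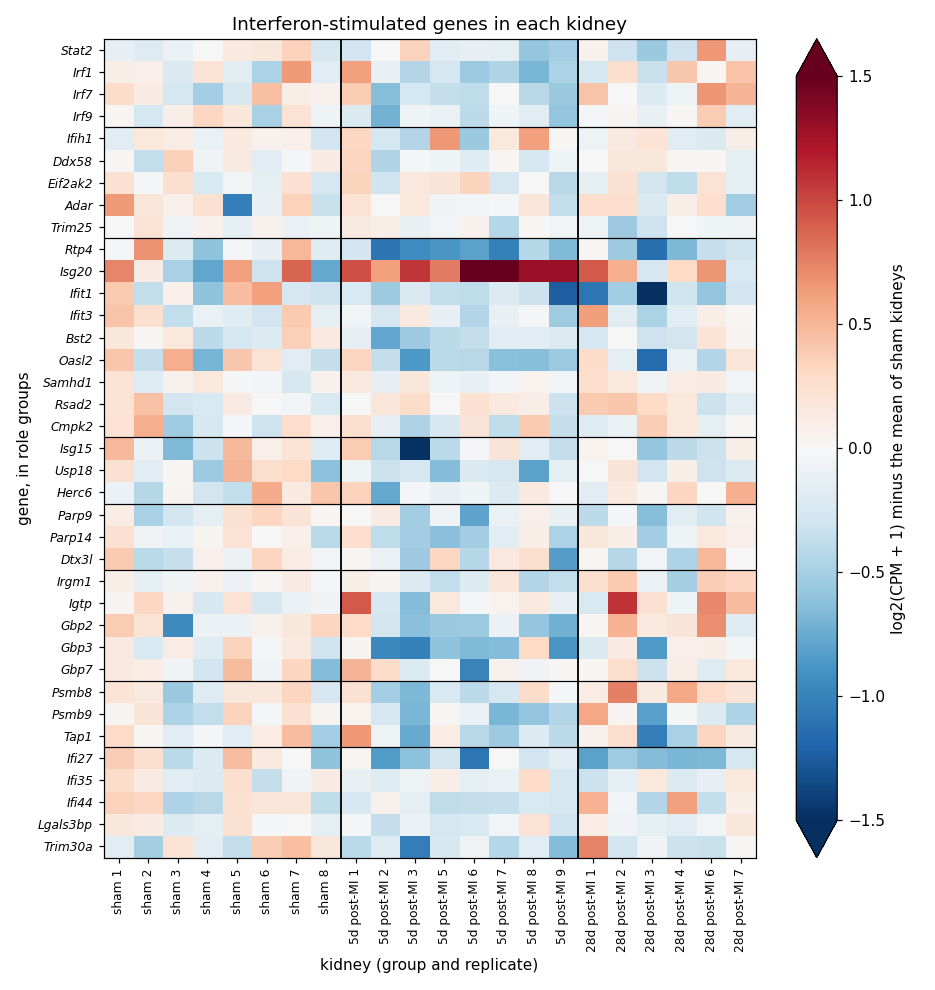
Level of each of the 37 tested ISGs (rows, in role groups) in each of the 22 kidneys (columns, by group and replicate), as log2(CPM + 1) minus the mean of the sham kidneys. Most 5d post-MI columns are shaded below the sham mean across role groups, apart from 5d replicate 1 and the row of Isg20.

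At 5d post-MI, the ISGs lay slightly below sham as a group, with Rtp4 at the lower and Isg20 at the upper end. Log2 fold changes against sham were below 0 for 32 of the 37 genes, where 49.9% of all tested genes were below 0. The other 5 were above 0, as were 50.1% of all genes. The median of the 37 was -0.19, against 0.00018 over all tested genes. None of the 37 was up- or downregulated at an edgeR adjusted p under 0.05, a threshold that 0.0704% of all tested genes passed. At an unadjusted p under 0.05, 12 genes were lower (3.97% of all genes) and 1 was higher (3.92% of all genes). No gene of the set had its 8 kidneys 5d post-MI fully apart from the 8 sham kidneys. The share of all tested genes that were fully apart was not counted, so nothing is read from this. The set's membership was chosen in view of these data, and the counts describe it only.

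Rtp4 encodes a receptor transporter protein induced by type I interferon, with reported activity against RNA viruses. In the sham kidneys it measured 5.12 CPM at the lowest, 7.86 CPM at the median and 13.9 CPM at the highest. At 5d post-MI the lowest, median and highest values were 3.35, 4.22 and 6.63 CPM. Of the 8 kidneys, 6 were below every sham kidney, and the ranges overlapped through 5d replicate 1 (6.63 CPM) and replicate 8 (5.93 CPM) against sham replicate 4 (5.12 CPM). Its log2 fold change was -0.92 (SE 0.20), the lowest of the set. The highest sham value belonged to replicate 2, a kidney rich in adrenal genes. Without the 3 kidneys rich in adrenal genes the log2 fold change was -0.79. At 28d post-MI the kidneys held 3.25 to 8.45 CPM (median 5.86 CPM), with a log2 fold change against sham of -0.56 (SE 0.22).

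Isg20, an interferon-induced exonuclease that degrades RNA, had the highest log2 fold change of the set 5d post-MI. It measured 0.539 to 3.86 CPM in sham (median 1.51 CPM) and 3.05 to 7.22 CPM 5d post-MI (median 5.03 CPM). All 8 kidneys 5d post-MI were above the sham median, and 6 of them were above every sham kidney. The log2 fold change was 1.34 (SE 0.31), with an edgeR adjusted p of 0.0980. The gene rests on 2 to 24 counts per kidney. With no filter on low counts, with DESeq2, with limma voom or without 5d replicate 1, the adjusted p was 0.00140, 0.0304, 0.0358 and 0.0459, respectively, within a range of 0.00140 to 0.253 over all alternatives. Summed red blood cell markers, mostly haemoglobin genes, were also higher 5d post-MI, at 5000 to 19130 CPM against 2219 to 4153 CPM in sham. Within the 5d group replicates 7 and 6 were the highest for both, and the order of the other kidneys was not the same. The highest Isg20 levels, 7.22 CPM in replicate 7 and 6.93 CPM in replicate 6, stood beside red blood cell sums of 13250 and 19130 CPM. The lowest, 3.05 CPM in replicate 2, stood beside 10030 CPM, whereas replicates 8 and 3, at 5.50 and 4.55 CPM, had sums of 7178 and 6700 CPM. At 28d post-MI Isg20 was 1.22 to 4.02 CPM and the sums were 1823 to 5151 CPM. The part of red blood cells in the Isg20 values was not tested.

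**Figure D2:**
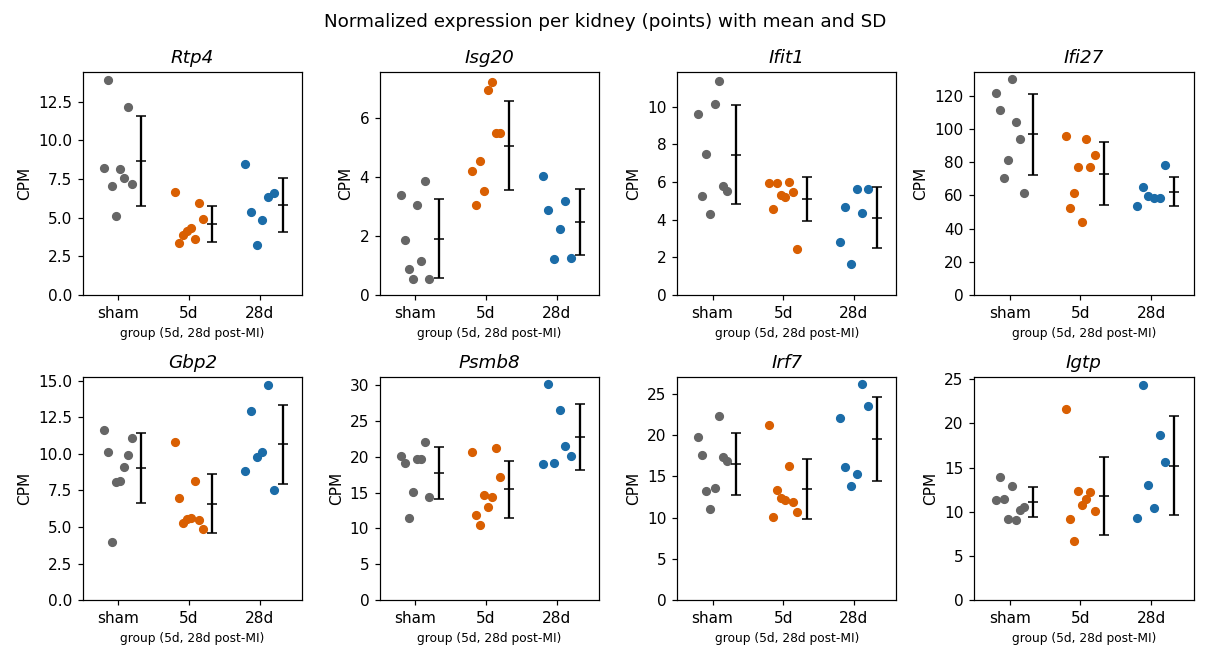
Normalized CPM per kidney (points) for Rtp4 and 7 other ISGs with values at the ends of the comparisons, by group, with the group mean and SD. In the Rtp4 panel 6 of 8 kidneys 5d post-MI lie below every sham kidney, and in the Isg20 panel 6 of 8 lie above every sham kidney.

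The other antiviral effectors at 5d post-MI covered a range of small differences. Ifit1, which binds viral RNA lacking a host-type cap, was 4.31 to 11.4 CPM in sham (median 6.65 CPM) and 2.44 to 6.02 CPM 5d post-MI (median 5.39 CPM). Its log2 fold change was -0.53 (SE 0.22, edgeR adjusted p = 0.549), and only 5d replicate 9 was below every sham kidney. Bst2 (tetherin), which retains virus particles on the cell surface, had a median of 36.7 CPM in sham and 28.4 CPM 5d post-MI, a log2 fold change of -0.36 (SE 0.11, edgeR adjusted p = 0.307). With no filter on low counts, Bst2 was called as downregulated. Oasl2, an oligoadenylate synthetase-like gene, had a log2 fold change of -0.49 (SE 0.21), and Ifit3 one of -0.22 (SE 0.14). Samhd1, a dNTP hydrolase, was at -0.01 (SE 0.09), Rsad2 (viperin) at 0.07 (SE 0.11) and its neighbour Cmpk2 at -0.14 (SE 0.15). Reads of Ifit3 could be shared with the near-identical Ifit3b.

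The transcription factors that carry the interferon signal were all on the lower side 5d post-MI. Stat2 and Irf9, both parts of ISGF3, had log2 fold changes of -0.18 (SE 0.16) and -0.33 (SE 0.14). Irf1, an interferon-induced transcription factor, was at -0.30 (SE 0.18) and Irf7, the amplifier of type I interferon transcription, at -0.29 (SE 0.16). Irf9 had 2 of 8 kidneys below every sham kidney, and none above. All 4 genes overlapped between the groups and none passed the test.

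Of the 7 nucleic acid sensors and their regulators, the 5 tested genes lay close to sham and 2 had too few counts to test. Dhx58, one of the latter, had 6 of 8 kidneys 5d post-MI below every sham kidney, and Zbp1 had 3 of 8. The 5 tested genes ran from a log2 fold change of -0.09 for Ddx58 (RIG-I) to 0.15 for Ifih1 (MDA5), with a median of -0.04. Ifih1 was among the 3 highest of the set and still spread in both directions. It ranged from 6.06 to 15.3 CPM 5d post-MI, with 4 of 8 kidneys above every sham kidney and 2 below every one, while sham ranged from 7.49 to 10.5 CPM. Adar, which edits adenosine in double-stranded RNA, Eif2ak2 (PKR) and Trim25, the ubiquitin ligase acting on RIG-I, had log2 fold changes of -0.08, 0.01 and -0.04.

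The genes of ISG15 conjugation had log2 fold changes of -0.29 (SE 0.20) for the modifier Isg15, -0.43 (SE 0.21) for the protease Usp18, which removes it, and -0.12 (SE 0.19) for the ligase Herc6. Isg15 ranged from 5.75 to 13.9 CPM in sham and from 2.80 to 12.9 CPM 5d post-MI, with 1 kidney below every sham kidney. The ADP-ribosyltransferases Parp9 and Parp14 were at -0.18 and -0.31, and Dtx3l, the ubiquitin ligase partner of PARP9, at -0.14. Parp14 had 4 of 8 kidneys below and 1 above every sham kidney.

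Among the interferon-inducible GTPases, which act on the vacuoles of intracellular pathogens, 2 guanylate-binding proteins had the lower values. Gbp3 was 6.38 to 10.5 CPM in sham (median 8.40 CPM) and 3.50 to 10.2 CPM 5d post-MI (median 4.79 CPM), with 6 of 8 kidneys below every sham kidney. Only 5d replicates 1 and 8, at 8.38 and 10.2 CPM, were inside the sham range. Its log2 fold change was -0.59 (SE 0.20, edgeR adjusted p = 0.425). Gbp2 had a log2 fold change of -0.47 (SE 0.18, edgeR adjusted p = 0.509). No kidney was below its lowest sham value, 3.98 CPM in sham replicate 3, and 6 of 8 were below the next lowest, 8.09 CPM. Irgm1, Gbp7 and Igtp were at -0.15, -0.01 and 0.10. Igtp was positive only through 5d replicate 1, at 21.6 CPM against 6.66 to 12.3 CPM in the other 7 kidneys, and was at -0.08 without it. Gbp genes resemble each other closely, and reads could be divided among them.

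The 3 genes that make and move peptides for MHC class I were also below 0, Psmb8 and Psmb9 (immunoproteasome subunits) at -0.22 and -0.37, and Tap1, the peptide transporter, at -0.19. Of the remaining genes, Ifi27 was 61.6 to 130 CPM in sham and 43.8 to 95.6 CPM 5d post-MI, a log2 fold change of -0.40 (SE 0.17, edgeR adjusted p = 0.576). Trim30a was at -0.48, Ifi44 at -0.29, Lgals3bp, a secreted glycoprotein, at -0.14 and Ifi35 at -0.08. Trim30a has close relatives in the genome that could take part of its reads.

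**Figure D3:**
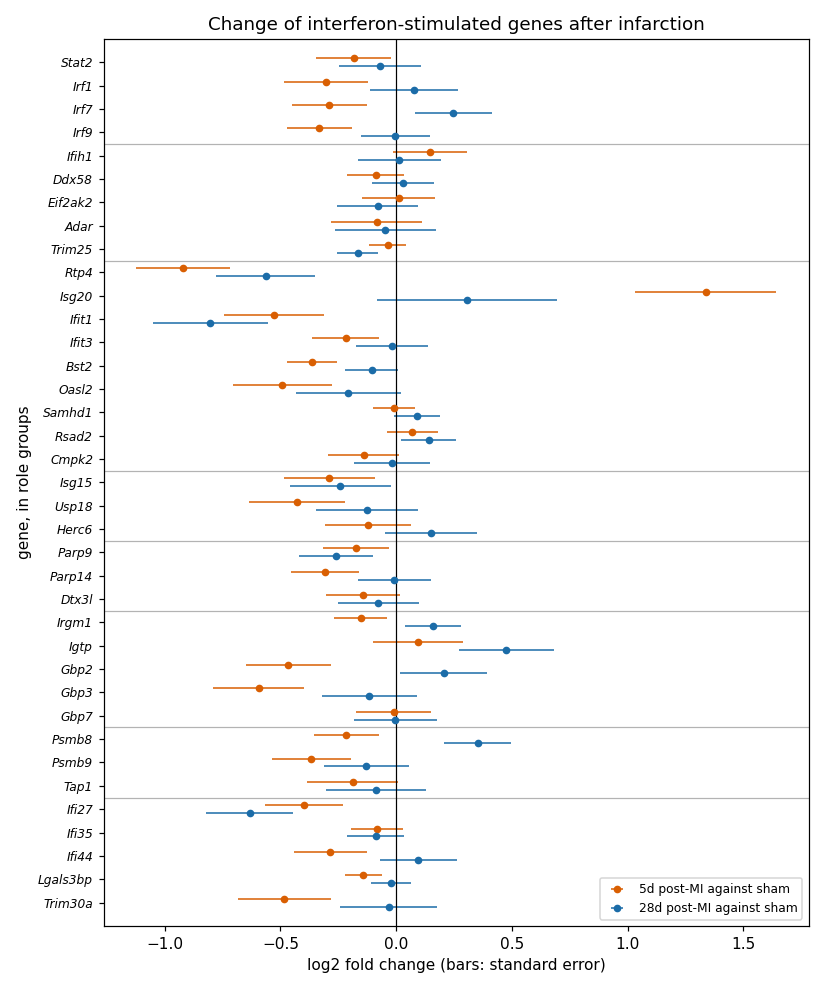
Log2 fold change with its standard error for each of the 37 tested ISGs, in role groups, for 5d post-MI against sham and 28d post-MI against sham. At 5d post-MI 32 of the 37 points lie below 0, and at 28d post-MI 24 lie below 0, with Isg20 at 1.34 and Rtp4 at -0.92 as the ends of the 5d range.

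At 28d post-MI, the set was divided around the sham level. Log2 fold changes were below 0 for 24 genes and above 0 for 13, where 50.4% and 49.6% of all tested genes were, and the median was -0.02. None was up- or downregulated at an edgeR adjusted p under 0.05, which 0.0235% of all tested genes passed. At an unadjusted p under 0.05, 3 genes were lower (4.23% of all genes) and 2 were higher (4.45% of all genes). No gene of the set had its 6 kidneys fully apart from sham, and the share among all tested genes was again not counted. Since the sham kidneys are shared, the values of both time points are set side by side without a measure of their likeness.

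The lowest value belonged to Ifit1, with 1.63 to 5.64 CPM (median 4.51 CPM) against a sham median of 6.65 CPM. Its log2 fold change was -0.80 (SE 0.25, edgeR adjusted p = 0.290), after -0.53 at 5d, and 2 of 6 kidneys were below every sham kidney. Ifi27, a mitochondrial and nuclear membrane protein strongly induced by type I interferon, followed with 53.5 to 78.4 CPM (median 58.9 CPM) against a sham median of 99.2 CPM. It had 4 of 6 kidneys below every sham kidney and a log2 fold change of -0.63 (SE 0.19, edgeR adjusted p = 0.308). With DESeq2 the adjusted p of Ifi27 was 0.0480, and with the replicate number as a block it was 0.0125, within a range of 0.0125 to 0.594 over all alternatives. Summed adipocyte markers were also lower 28d post-MI, with a median of 65.6 CPM against 171 CPM in sham and 141 CPM 5d post-MI. In sham, the kidneys with the highest and lowest Ifi27, replicates 5 and 8 at 130 and 61.6 CPM, had adipocyte sums of 249 and 51.3 CPM. At 5d post-MI, the corresponding replicates 1 and 6, at 95.6 and 43.8 CPM, had sums of 229 and 17.3 CPM. At 28d post-MI, replicates 7 and 1, at 78.4 and 53.5 CPM, had sums of 124 and 72.4 CPM. The order of the kidneys was not fully the same for both in any group. At 28d post-MI, replicate 2 at 64.8 CPM had a sum of 58.7 CPM, and replicate 3 at 59.4 CPM had one of 94.7 CPM. The part of adipocytes in the Ifi27 values was not tested.

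At the upper end stood Igtp, with 9.25 to 24.4 CPM (median 14.3 CPM) against 9.10 to 13.9 CPM in sham, a log2 fold change of 0.48 (SE 0.20, edgeR adjusted p = 0.510). Of its 6 kidneys, 3 were above every sham kidney. Psmb8 was 18.9 to 30.1 CPM (median 20.8 CPM) against a sham median of 19.4 CPM, a log2 fold change of 0.35 (SE 0.15, edgeR adjusted p = 0.480). The other genes of its role, Psmb9 and Tap1, were at -0.13 and -0.09. Isg20 was at 0.31 (SE 0.39), and Irgm1, with 4 of 6 kidneys above and 1 below the sham range, at 0.16 (SE 0.12). The sensors ran from -0.17 for Trim25 to 0.03 for Ddx58, and the signalling factors from -0.07 for Stat2 to 0.25 for Irf7.

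Set directly against 5d post-MI, the kidneys 28d post-MI held slightly more of most ISG transcripts. Log2 fold changes were above 0 for 29 of the 37 genes, where 48.6% of all tested genes were, and below 0 for 8 (51.4% of all genes), with a median of 0.12. None passed an edgeR adjusted p under 0.05, which 0.415% of all tested genes did. At an unadjusted p under 0.05, 8 genes were higher (5.03% of all genes) and 1, Isg20, was lower (4.01% of all genes). The 5 GTPases, the 4 signalling factors and the 3 genes of the peptide pathway were all above 0. This comparison shares no sham kidney, but its 5d kidneys are those already described.

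Psmb8 came nearest to the threshold, with 10.5 to 21.2 CPM 5d post-MI and 18.9 to 30.1 CPM 28d post-MI, a log2 fold change of 0.57 (SE 0.15, edgeR adjusted p = 0.0759). Of the 6 kidneys 28d post-MI, 3 were above every kidney 5d post-MI. Gbp2 was 4.89 to 10.8 CPM 5d post-MI and 7.52 to 14.7 CPM 28d post-MI, a log2 fold change of 0.67 (SE 0.20, edgeR adjusted p = 0.162). Irf7 had medians of 12.2 and 19.1 CPM, a log2 fold change of 0.54 (SE 0.17, edgeR adjusted p = 0.222). Without 5d replicate 1 the adjusted p was 0.0296 for Psmb8, 0.0389 for Gbp2 and 0.0405 for Irf7, and without 5d replicate 8 it was 0.0397 for Psmb8. With no filter on low counts, Psmb8 passed at 0.00451 and Irf7 at 0.0230. Over all alternatives the adjusted p ranged from 0.00451 to 0.291 for Psmb8, from 0.0389 to 0.491 for Gbp2 and from 0.0230 to 0.437 for Irf7. On the lower side were Isg20 at -1.03 (SE 0.33, edgeR adjusted p = 0.218), Ifit1 at -0.27 and Ifi27 at -0.24.

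Kidneys differed within each group, and the ISGs tended to move together from one kidney to the next. The median deviation of the 37 genes from the sham mean, on the log2(CPM + 1) scale, ran from -0.19 to 0.21 in sham (median 0.04), from -0.36 to 0.14 5d post-MI (median -0.21) and from -0.27 to 0.05 28d post-MI (median 0.02). In the 5d group, replicate 1 was highest of its group for 19 of the 37 genes and above the sham mean for 25, whereas replicate 9 was above the sham mean for 4. In the 28d group, replicate 3 was lowest of its group for 18 of the 37 genes. After the group means were removed, the median Pearson r over the 666 pairs of these genes was 0.20 across 22 kidneys, against -0.00076 over all pairs of tested genes, and 78.2% of the pairs were above 0. These values are a description, since the genes were read from the same libraries, 1 per kidney, and the counts are low. Tap1, Isg15 and Parp14 followed the other genes most closely (median r of 0.377, 0.366 and 0.358), and Trim25, Rsad2 and Ddx58 hardly did (-0.0101, 0.00649 and 0.0106).

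**Figure D4:**
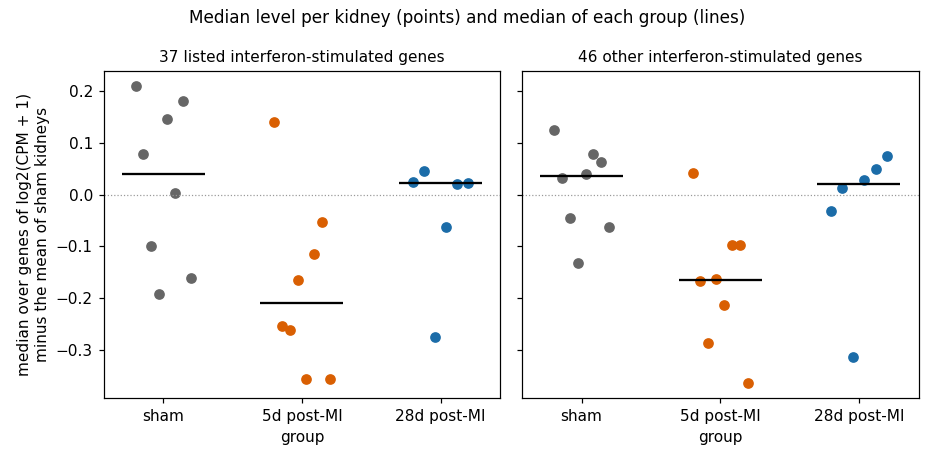
Median over genes of log2(CPM + 1) minus the sham mean in each kidney (points), with the median of each group (lines), for the 37 tested ISGs of the set and for 46 other ISGs. In both panels 7 of the 8 kidneys 5d post-MI lie below 0, with replicate 1 above, and 28d replicate 3 lies apart from the rest of its group.

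The rest of the pathway was described with further lists, also chosen with earlier results of these data known. Over all tested genes, 0.0704% were called at 5d, 0.0235% at 28d and 0.415% for 28d against 5d. Interferon ligands were at the limit of detection. Of 11 ligand genes, 7 had no count in any kidney, and Ifng with 3 counts, Ifnl3 with 2, Ifnk with 1 and Ifnz with 1 over all 22 kidneys never had more than 1 in a kidney. At this depth a kidney with 0 counts could still hold up to 0.809 to 1.326 CPM, a limit that covers counting error only. Of 6 receptor genes, 4 were tested and none was called. Ifnar1, a chain of the type I receptor, had log2 fold changes of 0.22 at 5d and 0.10 at 28d, and Ifngr2, of the type II receptor, of -0.23 and -0.21. Of the 9 kinases, STATs and feedback regulators, 8 were tested and none was called. Stat3, which serves interleukin-6 type cytokines, was at 0.20 (SE 0.07, edgeR adjusted p = 0.431). Of the 15 upstream sensors, adaptors and IRFs, 12 were tested and none was called, with medians of -0.09 at 5d and -0.01 at 28d.

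A further list of 68 ISGs outside the set, of which 46 were tested, gave values of the same order. It was chosen in the same way, and its counts describe it only. At 5d post-MI 39 were below 0 (49.9% of all tested genes) and 7 above (50.1%), with a median of -0.16. At 28d post-MI 27 were below (50.4% of all tested genes) and 19 above (49.6%), with a median of -0.02. In the direct comparison of 28d with 5d, 34 were above 0 (48.6% of all tested genes), with a median of 0.11. None of the 46 was called in any comparison, where 0.0704% (5d), 0.0235% (28d) and 0.415% (28d against 5d) of all tested genes were. Ifi203, a family member of DNA-binding interferon-induced proteins, was 9.02 to 12.2 CPM in sham and 4.28 to 9.42 CPM 5d post-MI, with 7 of 8 kidneys below every sham kidney and a log2 fold change of -0.47 (SE 0.16, edgeR adjusted p = 0.425). Parp10 was at -0.32 (SE 0.11, edgeR adjusted p = 0.425). Over all these lists, the lowest p-values at 28d post-MI were those of Cd274 (PD-L1) at 0.68 (edgeR adjusted p = 0.414), the GTPase Tgtp1 at 0.64 (0.444) and the adaptor Myd88 at -0.29 (0.454).

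In the comparison of 28d with 5d, the 3 pathway genes outside the set with the lowest p-values were the GTPases Gbp4, Iigp1 and Tgtp2, and none passed the test. Gbp4 had medians of 2.82 and 6.91 CPM at 5d and 28d, with 4 of 6 kidneys 28d post-MI above every kidney 5d post-MI, and a log2 fold change of 1.01 (SE 0.27, edgeR adjusted p = 0.0847). Iigp1 was at 0.76 (SE 0.22, edgeR adjusted p = 0.193) and Tgtp2 at 0.83 (SE 0.26, edgeR adjusted p = 0.206). Tgtp1 and Tgtp2 are near-identical copies, so the share of reads between them is uncertain.

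Genes with and without an ISRE core had nearly equal medians. At 5d post-MI the 15 tested genes with the core had a median log2 fold change of -0.18, and the 17 tested genes with a promoter but no core one of -0.14. At 28d post-MI both medians were -0.02, and for 28d against 5d both were 0.12. Below 0 at 5d were 11 of the 15 and 16 of the 17, against 49.9% of all tested genes. At 28d post-MI 9 and 10 were below 0 (50.4% of all tested genes). For 28d against 5d, 12 and 14 were above 0 (48.6% of all tested genes). Isg20 and Ifit1, at opposite sides of sham, hold a GAS and 2 ISRE cores, respectively, in the stretches printed above.

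Markers of other cell types were measured beside these values. Sums over 17 leukocyte markers were 89.7 to 129 CPM in sham (median 97.3 CPM), 74.7 to 119 CPM 5d post-MI (88.2 CPM) and 90.3 to 131 CPM 28d post-MI (104 CPM), and the 5d group had the lowest median, as it had for the ISGs. The 5d median was also the lowest for plasma cell, plasmacytoid dendritic cell and endothelial markers. The same held for kidney markers, with medians of 7565, 7511 and 7796 CPM in sham, 5d and 28d. It was not the lowest for red blood cell, adrenal cortex and adipocyte markers. The plasmacytoid sums rest on few counts, at most 6 per kidney for Siglech, 3 for Ccr9 and 20 for Cox6a2. None of the 17 leukocyte markers was at 0 in every kidney. Of the 5 leukocyte markers with enough counts to test, all 5 had log2 fold changes below 0 at 5d (49.9% of all genes). None was called (0.0704% of all genes). At 28d these 5 ran from -0.81 to 0.22 against sham. The markers too low to test went both ways at 5d. The highest values in sham and at 5d were 3.51 and 4.55 CPM for S100a8, and 1.02 and 0.602 CPM for Cd4. Plasma cell markers, mainly immunoglobulin genes, summed to 24.4 to 64.3 CPM in sham, 15.0 to 75.3 CPM 5d post-MI and 88.8 to 147 CPM 28d post-MI (medians 42.6, 32.1 and 111 CPM), with 1 of the 6 genes at 0 throughout. Of the 4 tested, 3 were above and 1 below sham at 28d, from -0.39 to 1.68. For 28d against 5d, 2 of the 4 were called as upregulated, where 0.415% of all tested genes were called in either direction. Markers of plasmacytoid dendritic cells, a main source of type I interferon, summed to 1.27 to 5.82 CPM over all kidneys, with medians of 3.03, 2.88 and 3.24 CPM in sham, 5d and 28d. Endothelial markers were 173 to 210 CPM in sham, 135 to 199 CPM 5d post-MI and 176 to 201 CPM 28d post-MI, with medians of 192, 174 and 183 CPM. Adipocyte markers were 51.3 to 335 CPM in sham, 17.3 to 229 CPM 5d post-MI and 52.7 to 124 CPM 28d post-MI. The part of these cells in the ISG values was not tested.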

How the data were processed

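MACE-seq libraries with molecular identifiers were made by the authors from kidney RNA of 24 mice, and the deposited table holds counts of molecules per gene. Per the labels the tools were FastQC, Cutadapt, Bowtie2, HTSeq and DESeq2, with the build mm39, while the methods name mm10. No gene coordinate of the files was used here. The counts and gene names still rest on the build to which the reads were aligned. Of the table, 22 count columns were used, and 26 columns of values were not: 2 count columns that share a name, and 24 columns of the same counts rescaled to a common total. A gene name was matched for 51948 of 56941 IDs, and 30116 genes had a count.

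Genes were filtered with filterByExpr (minimum count 10), normalized by TMM and tested with edgeR's robust quasi-likelihood test in 1 model of all 3 groups, with Benjamini-Hochberg adjustment over 12780 genes (edgeR 4.0.16, limma 3.58.1, DESeq2 1.42.0, R 4.3.3). Kidneys with equal replicate numbers were not paired in this test. The genes and lists were chosen with earlier results of these data known. Named with values were Rtp4, any called gene, the 3 highest and 3 lowest log2 fold changes per comparison, and the 3 pathway genes of lowest p. Other values were picked afterwards to describe each role group. Promoters came from RefSeq (GRCm38.p6). Alternatives were DESeq2, its size factors, library totals alone, no count filter, limma voom, only the groups compared, a replicate block, each kidney left out and, added after seeing the data, the 3 kidneys rich in adrenal genes left out. One gene of the pathway lists is not reported here.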

Additional observations from a re-analysis of the deposited data

Results flagged for a closer look

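The highest and lowest kidney of each group was checked against its neighbours for 10 named ISGs and for the median of the set, 33 checks in all, and 4 stood apart by Dixon's test at the 95% level. Chance alone marks about 1 in 20 groups. Gbp2 in sham replicate 3 was 3.98 CPM, against a group median of 9.52 CPM. Ifit1 in 5d replicate 9 was 2.44 CPM, against a group median of 5.39 CPM. Igtp in 5d replicate 1 was 21.6 CPM, against a group median of 11.1 CPM. The median deviation of the 37 tested ISGs in 28d replicate 3 was -0.2745 on the log2(CPM + 1) scale, against a group median of 0.0215.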

How the results depend on the processing

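The median log2 fold change of the ISGs was -0.25 to -0.14 at 5d, -0.07 to 0.01 at 28d and 0.10 to 0.24 for 28d against 5d when each kidney was left out in turn, and -0.21 to -0.18, -0.06 to -0.02 and 0.09 to 0.18 under the other alternatives. Of the named genes, 551 of 568 values kept their direction and their side of the threshold, and 1 turned: Igtp at 5d, 0.10, was -0.0835 without 5d replicate 1. None of these genes was called in the main analysis, and the alternatives share most or all kidneys with it. The count is therefore no measure of how certain the differences are.

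Calls depended more on the setting. Among the ISGs, none was called at 5d in the main analysis, 2 with DESeq2, 3 with no count filter, 1 with limma voom, and 0 to 2 with a kidney left out (2 without 5d replicate 1, 1 without sham replicate 4). Isg20 was among them in each of these settings but the last, and Bst2 with no count filter. The remaining calls are of Rtp4 and are no test of it, since its values at 5d are counted as used in choosing the set. At 28d, 1 was called with DESeq2 and 1 with the replicate block (Ifi27 in both), and 0 with any kidney left out. For 28d against 5d, 2 were called with no count filter (Irf7 and Psmb8) and 0 to 3 with a kidney left out (3 without 5d replicate 1, 1 without 5d replicate 8). Over all genes, the 9 called at 5d became 36 with DESeq2, 5 with library totals alone, 80 with no filter, 22 with limma voom, 2 with only the groups compared, 2 without the kidneys rich in adrenal genes, 9 with the replicate block and 1 to 38 with a kidney left out (38 without 5d replicate 1). The 3 called at 28d became 30, 1, 94, 11, 31 and 1 under the same alternatives, 92 with the replicate block and 0 to 29 with a kidney left out. For 28d against 5d, 53 became 91 with DESeq2, 160 with no filter, 26 with only the groups compared, 35 with the replicate block and 41 to 84 with a kidney left out. The cause was not tested.

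Kidneys with equal replicate numbers came from separate mice and were not paired in the main test. Whether same-numbered kidneys shared a step of processing was not tested. Same-numbered kidneys correlated at -0.0997 to 0.0548 over 7 pairs (5d and sham), -0.0846 to 0.0825 over 6 (28d and sham) and -0.13 to 0.0898 over 5 (28d and 5d), and 1 of 14, 1 of 12 and 6 of 10 kidneys correlated best with their own number. With 2280618 to 3786275 counts per kidney, Isg20 rests on 2 to 24 counts per kidney, Ifit1 on 4 to 34 and Rtp4 on 8 to 44.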
